A study of Homo sapiens with 9 samples.

Results

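The histone genes of the HIST clusters were followed in MOLM13, a line grown from a person's acute myeloid leukemia, after infection with a virus for a control short hairpin RNA (shRNA) or for 1 of 2 shRNAs against YTHDC1, a nuclear reader of the RNA mark m6A. All cells of the 3 groups took the same course: spinning with virus, 48 h of incubation and 48 h under puromycin. Each group, called control, shRNA 1 and shRNA 2 here, held 3 libraries made with a stranded kit for messenger RNA. The labels number the libraries but name no separate cultures, so the p-values rest on the spread between libraries, and that spread may be technical. The genes were all symbols that begin with HIST1H, HIST2H, HIST3H or HIST4H, 73 of the 25679 symbols of the deposited count table, with the row of the highest total kept for each. They comprised 6 genes for H1, 18 for H2A, 20 for H2B, 14 for H3 and 15 for H4. The HIST1 cluster on chromosome 6 held 56 of them, HIST2 and HIST3 on chromosome 1 held 13 and 3, and HIST4H4 on chromosome 12 stood alone.

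A nucleosome wraps DNA around a core of H2A, H2B, H3 and H4, and H1 binds the linker between nucleosomes. Most genes of these clusters are replication-dependent: they are transcribed in S phase, when new DNA must be packaged, and their mRNAs end in a conserved stem-loop instead of a poly(A) tail. The stem-loop is bound by SLBP, and the U7 small nuclear ribonucleoprotein guides the cut behind it. Libraries made from poly(A) RNA therefore see these transcripts only in part, and the values below give reads that passed that selection, not the cells' whole histone mRNA. In bulk RNA, fewer cells in S phase and less histone mRNA per cell cannot be told apart.

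The histone stem-loop motif, 16 bases long and seen in the capitals of the sequences below, was searched on the transcript strand in the models of GENCODE release 29. It was found in models of 32 of the 73 genes and in 82 of 206590 transcripts of other genes (0.0397%). The other models may stop before it, so no match says only that these letters are not in the model. Shown here in capitals, with 5 bases on each side, are the stem-loops of the genes to which the results below return, as DNA letters from 5′ to 3′.
HIST1H2AE: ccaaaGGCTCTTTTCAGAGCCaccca
HIST1H2AG: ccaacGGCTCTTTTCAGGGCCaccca
HIST1H2BD: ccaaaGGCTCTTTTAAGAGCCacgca
HIST2H2AA3: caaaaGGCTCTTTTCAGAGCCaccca
HIST1H4I: aaaaaGGCCCTTTTTAGGGCCcctaa
HIST1H4J: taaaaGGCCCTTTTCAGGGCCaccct
HIST2H4A: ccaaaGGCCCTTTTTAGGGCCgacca
All 8 H4 genes with a match opened the stem with GGCCC and closed it with GGGCC. Of the 24 matches in genes of other types, 22 opened with GGCTC and closed with GAGCC, and 2, those of HIST1H2AG and HIST2H2BC, opened with GGCTC and closed with GGGCC.

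Promoters of 65 genes were found in RefSeq (GRCh38.p14, 250 bases before to 50 after the start) and searched on both strands for 6 motifs, beside all 35116 promoters of the table. CCAAT stood in 55 of the 65, against 34.6% of all promoters, and among the types it was in 6 of 6 for H1, 16 of 16 for H2A, 18 of 18 for H2B, 12 of 12 for H3 and 3 of 13 for H4. ATTTGCAT, the octamer known from H2B promoters, was in 14 of 18 for H2B and 11 of 16 for H2A, against 1.77% of all promoters. AAACACA was in 6 of 6 for H1, against 5.64% of all, and GGTCCG was in 12 of 13 for H4, against 11.3% of all. TATAAA was in 43 of the 65 (11.5% of all) and TTTNGCGC in 12 (1.79% of all). A match is a description of the letters, not a binding site. Where an H2A and an H2B gene start near each other on opposite strands, their windows may overlap. The same match may then count for both genes, so the counts of these types are not independent. The promoters of a gene seen to fall in an earlier analysis of these data (HIST1H4I), of a gene that did not pass as lower with shRNA 2 (HIST1H2BK) and of one of the genes with the deepest falls (HIST1H3B) are shown, with matches on either strand in capitals.
HIST1H4I, chr6:27139032-27139331, plus strand: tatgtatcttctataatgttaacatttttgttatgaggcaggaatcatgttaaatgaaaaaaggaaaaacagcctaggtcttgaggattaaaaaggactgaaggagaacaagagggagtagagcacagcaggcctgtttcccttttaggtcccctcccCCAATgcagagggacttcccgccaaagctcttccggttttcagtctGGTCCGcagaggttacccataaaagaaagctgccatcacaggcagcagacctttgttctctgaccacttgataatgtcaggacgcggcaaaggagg
HIST1H2BK, chr6:27146809-27147108, minus strand: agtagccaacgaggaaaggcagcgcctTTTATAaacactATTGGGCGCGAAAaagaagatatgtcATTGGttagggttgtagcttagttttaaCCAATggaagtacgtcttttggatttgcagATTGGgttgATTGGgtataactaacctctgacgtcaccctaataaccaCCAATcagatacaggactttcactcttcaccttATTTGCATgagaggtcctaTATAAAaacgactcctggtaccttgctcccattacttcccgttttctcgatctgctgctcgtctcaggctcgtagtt
HIST1H3B, chr6:26032050-26032349, minus strand: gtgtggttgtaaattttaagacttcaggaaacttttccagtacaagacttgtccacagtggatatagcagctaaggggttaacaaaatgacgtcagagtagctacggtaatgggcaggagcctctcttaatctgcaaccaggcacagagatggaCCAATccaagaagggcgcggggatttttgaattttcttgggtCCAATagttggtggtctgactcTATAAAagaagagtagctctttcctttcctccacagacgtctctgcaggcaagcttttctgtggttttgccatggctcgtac

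Library totals ran from 26455628 to 67558535 counts, lowest in shRNA 2 replicate 1. Levels are given as CPM, counts over the scaled library total in the usual unit. YTHDC1 itself was at 134, 139 and 122 CPM in the control libraries, at 117, 103 and 134 with shRNA 1 and at 0, 61.4 and 52.5 with shRNA 2. Its level overlapped between shRNA 1 and control, and in shRNA 2 replicate 1 the gene had no count, while the other shRNA 2 libraries were above 50 CPM. The log2 difference from control, here and below ± its standard error (SE), was -0.16 ± 1.36 (edgeR adjusted p = 0.938) with shRNA 1 and -1.79 ± 1.41 (edgeR adjusted p = 0.326) with shRNA 2. Without shRNA 2 replicate 1 the SE was smaller. The difference was then -0.18 ± 0.13 (edgeR adjusted p = 0.271) with shRNA 1 and -1.23 ± 0.15 (edgeR adjusted p = 2.2e-05) with shRNA 2. The names shRNA 1 and shRNA 2 therefore stand for libraries labelled so, since YTHDC1 mRNA with shRNA 1 did not differ from control beyond the spread. Because shRNA 2 replicate 1 also lacks reads of several histone genes, counts of called genes are given with and without it. Whether that library was counted in the same way as the others is not stated in the sources used here and was not tested, so its values near 0, and each fit that holds it, carry that limit. The ribosomal precursor RNA45S5, which has no poly(A) tail, took 1.12% to 13.1% of a library's counts. Of 10 myeloid marker genes, 8 were above 10 CPM in all 9 libraries; their sum was 1493 to 1658 CPM in control, 3371 to 5593 with shRNA 1 and 3902 to 4421 with shRNA 2. LYZ, for lysozyme, made up most of the rise, and without it the sums were 1344 to 1396, 1667 to 1804 and 1405 to 1460 CPM. Of the 9 markers tested, 6 were higher and 1 lower with shRNA 1, where 20.4% and 19% of all genes were. With shRNA 2 it was 5 and 2, where 27.5% and 27.4% were. Leaving out shRNA 2 replicate 1 gave 6 and 1 (19.6% and 20.8% of all genes) and 5 and 3 (25.8% and 27%). Beside LYZ, ITGAM (1.76 and 2.88), CSF1R (2.225 and 1.99), PTPRC (0.725 and 0.97) and SPI1 (0.555 and 1.07) were higher with both (edgeR adjusted p under 0.05). FLT3 was lower with both shRNAs, -0.42 ± 0.12 (edgeR adjusted p = 0.0146) and -1.17 ± 0.12 (edgeR adjusted p = 1.02e-05), and MPO was higher with shRNA 1, 1.56 ± 0.28 (edgeR adjusted p = 0.00272), and lower with shRNA 2, -1.27 ± 0.28 (edgeR adjusted p = 0.00474). Of 10 genes listed as markers of other cell types, 7 were under 1 CPM in all libraries. The sum of the 10 was 23.9 to 28.2 CPM in control, 119.9 to 173.5 with shRNA 1 and 170.8 to 190.8 with shRNA 2. PECAM1 made up 26.8 CPM of it in control replicate 1 and 189 in shRNA 2 replicate 1, so the rise was that of PECAM1 and not of the list. The part of these shifts in the histone results was not tested.

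Histone mRNA of every type fell with both shRNAs. Of the 73 genes, 60 passed the filter on low counts and 13 did not, of which HIST1H4F and HIST1H4G had no count and the other 11 never exceeded 0.319 CPM. The 60 hold 3 pairs with identical counts in every library (HIST2H2AA3 and HIST2H2AA4, HIST2H3A and HIST2H3C, HIST2H4A and HIST2H4B). Both genes of each pair enter the counts of genes and the medians, though they are not separate measurements. With shRNA 1, 48 of the 60 were lower than control and 0 higher (edgeR quasi-likelihood test, adjusted p under 0.05), where 19% of all 16746 genes tested were lower and 20.4% higher. With shRNA 2, 52 were lower and 0 higher, where 27.4% of all genes were lower and 27.5% higher. No gene had a positive log2 difference with shRNA 1, and with shRNA 2 the pseudogene HIST2H2BC alone did (0.19), so none was higher at an unadjusted p under 0.05 either; DESeq2 also called 0 higher. The median log2 difference of the 60 was -2.01 with shRNA 1 and -2.98 with shRNA 2, against 0.02 and -0.02 over all genes tested. Both comparisons use the same control libraries. Without shRNA 2 replicate 1, 63 genes passed the filter; 60 of them were lower with shRNA 1 (20.8% of all genes) and 58 with shRNA 2 (27% of all genes).

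By library, 58 of the 60 genes lay below every control library with shRNA 1, where 24.2% of all genes did, and the exceptions were HIST3H2A and HIST4H4. With shRNA 2, 57 lay below every control library, where 35% of all genes did, and the exceptions were HIST1H2BK, HIST2H2BC and HIST3H2A. The count was also 57 without shRNA 2 replicate 1, where 38.6% of all genes did. The libraries of shRNA 1 also differed among themselves: replicate 3 was the lowest of its group for 56 of the 60 genes and replicate 2 the highest for 51. The same replicate 3 was the lowest of its group for all 8 RNAs without a poly(A) tail that were looked at, a list chosen after the values were seen. RPPH1, the RNA of ribonuclease P, was at 12480.0, 8464 and 9061 CPM in control, 13010.0, 17640.0 and 3864 with shRNA 1 and 10170.0, 6400.0 and 9951 with shRNA 2. RMRP, the RNA of ribonuclease MRP, was at 5023, 4539 and 5420.0 CPM in control, 5029, 6953 and 2021 with shRNA 1 and 4753, 3104 and 3073 with shRNA 2. Neither passed as changed: RPPH1 differed from control by 0.20 ± 0.52 (edgeR adjusted p = 0.79) with shRNA 1 and -0.18 ± 0.52 (edgeR adjusted p = 0.797) with shRNA 2, and RMRP by -0.10 ± 0.41 (edgeR adjusted p = 0.875) and -0.46 ± 0.41 (edgeR adjusted p = 0.38). Among the 8, RNU4ATAC alone passed with all libraries, and it was higher with both shRNAs, by 0.95 ± 0.27 (edgeR adjusted p = 0.017) and 1.04 ± 0.27 (edgeR adjusted p = 0.00743). RNA45S5 was also higher with shRNA 1, 1.04 (edgeR adjusted p = 0.0419), in the fit without shRNA 2 replicate 1. Whether the carry-over of RNA without a tail had a part in the replicate order was not tested.

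**Figure D1:**
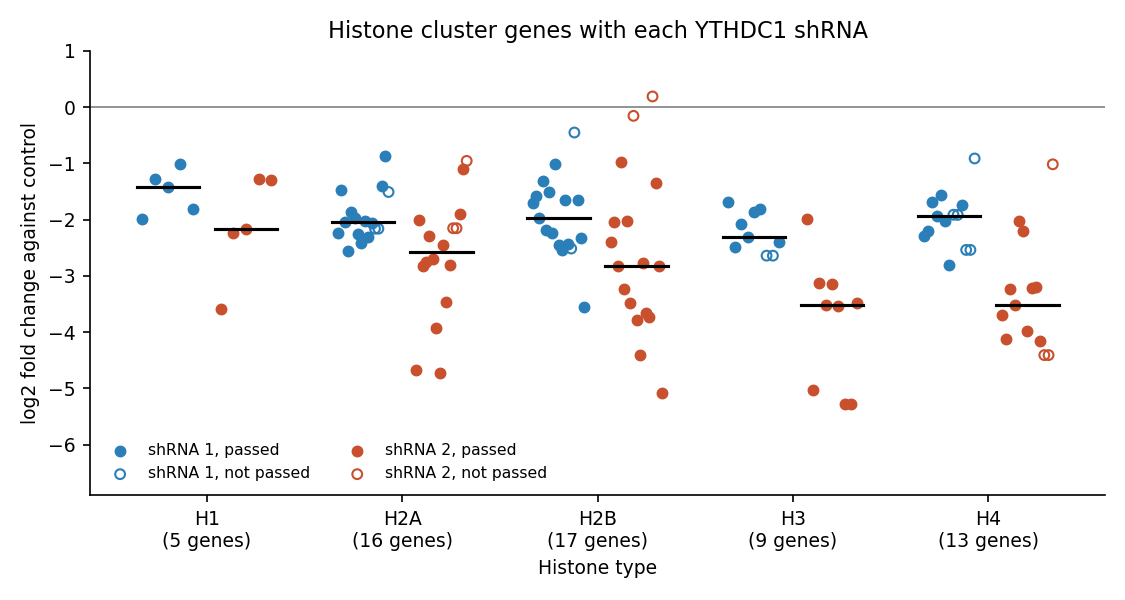
The log2 fold change against control (vertical axis) of the 60 histone genes that passed the filter, by histone type, for shRNA 1 (blue) and shRNA 2 (red). Filled points passed the edgeR threshold of 0.05, open points did not, and black lines are medians, which run from -1.41 (H1) to -2.30 (H3) with shRNA 1 and from -2.17 (H1) to -3.52 (H3 and H4) with shRNA 2.

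The linker histone genes fell least by median, with medians of -1.41 and -2.17. They were lower in 5 of 5 tested with each shRNA, where 19% and 27.4% of all genes were. Without shRNA 2 replicate 1, which lets 6 pass the filter, it was 5 of 6, where 20.8% and 27% of all genes were. HIST1H1B was at 1069, 680.5 and 755 CPM in control, 251, 277 and 99.5 with shRNA 1 and 67.7, 45.6 and 93.8 with shRNA 2. All 3 groups were apart, with shRNA 2 lowest, though 99.5 CPM in shRNA 1 replicate 3 was near 93.8 in shRNA 2 replicate 3. The log2 fall was -1.997 ± 0.44 (edgeR adjusted p = 0.00967) with shRNA 1 and -3.60 ± 0.47 (edgeR adjusted p = 0.000452) with shRNA 2. Its call between the shRNAs was lost without control replicate 3 (edgeR adjusted p = 0.0523) or the filter (0.0518), and with the compared groups alone (0.0814). It was also lost without shRNA 1 replicate 1 or 2 or shRNA 2 replicate 2 (edgeR adjusted p = 0.0959, 0.0793 and 0.0728). HIST1H1E, another major somatic linker histone gene, was at 771, 660.2 and 663 CPM in control, 392, 402 and 239 with shRNA 1 and 289, 227 and 349 with shRNA 2. Both shRNA groups lay below control but overlapped each other, and the change was -1.02 ± 0.21 (edgeR adjusted p = 0.00324) and -1.28 ± 0.21 (edgeR adjusted p = 0.000467). HIST1H1C changed by -1.28 ± 0.20 (edgeR adjusted p = 0.000514) and -2.23 ± 0.20 (edgeR adjusted p = 5.7e-06), and HIST1H1D by -1.41 ± 0.22 (edgeR adjusted p = 0.000726) and -2.17 ± 0.23 (edgeR adjusted p = 2.37e-05). HIST1H1T, the testis linker histone gene, was at 1.53 to 2.33 CPM in control and below 1 CPM with either shRNA.

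Among H2A genes, 13 of 16 were lower with each shRNA, where 19% and 27.4% of all genes were. Without shRNA 2 replicate 1 it was 15 of 16, where 20.8% and 27% of all genes were. HIST1H2AE, known to fall from an earlier analysis of these data, was at 189, 145 and 151 CPM in control, 29.3, 35.0 and 17.9 with shRNA 1 and 25.2, 18.9 and 27.6 with shRNA 2. Both shRNA groups lay far below control and overlapped each other. Its changes were -2.56 ± 0.25 (edgeR adjusted p = 6.91e-05) and -2.76 ± 0.25 (edgeR adjusted p = 1.75e-05). HIST1H2AJ was at 266, 196 and 217 CPM in control, 48.1, 57.8 and 21.7 with shRNA 1 and 5.97, 8.25 and 11.3 with shRNA 2. The 3 groups formed steps without overlap, and the changes were -2.41 ± 0.40 (edgeR adjusted p = 0.00255) and -4.73 ± 0.44 (edgeR adjusted p = 7.58e-05). HIST1H2AB took a like course, with -2.24 ± 0.34 (edgeR adjusted p = 0.000959) and -4.68 ± 0.39 (edgeR adjusted p = 1.27e-05), while HIST1H2AG, which shares its form of the stem-loop with HIST2H2BC, fell by 1.86 and 2.29 on the log2 scale (edgeR adjusted p = 0.000175 and 2.1e-05). HIST2H2AC was at 214, 154 and 191 CPM in control, 119.6, 119 and 68.2 with shRNA 1 and 79.9, 73.9 and 108 with shRNA 2. It fell less, by 0.87 (edgeR adjusted p = 0.0155) and 1.10 (edgeR adjusted p = 0.0031), and its call with shRNA 1 was lost without control replicate 1 (-0.76, edgeR adjusted p = 0.0647) or control replicate 3 (-0.86, edgeR adjusted p = 0.0516). HIST2H2AB changed by -1.41 ± 0.21 (edgeR adjusted p = 0.000478) and -1.90 ± 0.21 (edgeR adjusted p = 3.31e-05). HIST3H2A stayed at or under 0.346 CPM in all libraries and did not pass in either comparison, with -1.51 ± 0.61 (edgeR adjusted p = 0.0725) and -0.96 ± 0.60 (edgeR adjusted p = 0.201); without shRNA 1 replicate 2 it passed with shRNA 1 (-2.77, edgeR adjusted p = 0.0101).

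Among H2B genes, 15 of 17 were lower with each shRNA, where 19% and 27.4% of all genes were. Without shRNA 2 replicate 1 it was 18 of 19 with shRNA 1 (20.8% of all genes) and 16 of 19 with shRNA 2 (27%). The type held the deepest fall with shRNA 1, that of HIST3H2BB, and also HIST1H2BK, which parted from its neighbours with shRNA 2. HIST1H2BK was at 277, 263 and 264 CPM in control, 144, 158 and 95.5 with shRNA 1 and 246, 208 and 267 with shRNA 2. All shRNA 1 libraries were below all others, while shRNA 2 replicate 3 was within the range of the controls and replicates 1 and 2 were below it. The gene fell with shRNA 1, -1.02 ± 0.17 (edgeR adjusted p = 0.000813), did not pass with shRNA 2, -0.16 ± 0.17 (edgeR adjusted p = 0.455), and stood higher under shRNA 2 than under shRNA 1, 0.86 ± 0.17 (edgeR adjusted p = 0.00287). Its promoter is shown above. RefSeq gives it a span of 8566 bases, where 52 of the 60 genes span up to 1000, and 25.9% of the 50-base stretches of its transcripts occur in no other gene. HIST1H2AH, the H2A gene that starts within 1000 bases of it on the other strand, was at 145, 112 and 139 CPM in control, 34.1, 48.2 and 18.4 with shRNA 1 and 22.3, 15.9 and 22.8 with shRNA 2. That neighbour lay below control in every shRNA library, with -1.97 ± 0.33 (edgeR adjusted p = 0.00214) and -2.70 ± 0.34 (edgeR adjusted p = 0.000256).

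HIST1H2BM was at 121, 97.1 and 93.6 CPM in control, 19.2, 21.6 and 12.7 with shRNA 1 and 4.204, 4.28 and 6.13 with shRNA 2, steps without overlap. It changed by -2.54 ± 0.22 (edgeR adjusted p = 1.88e-05) and -4.41 ± 0.24 (edgeR adjusted p = 2.47e-07). HIST1H2BC changed by -1.57 ± 0.20 (edgeR adjusted p = 0.000179) and -2.04 ± 0.20 (edgeR adjusted p = 1.4e-05), and HIST2H2BF by -2.32 ± 0.20 (edgeR adjusted p = 1.9e-05) and -2.82 ± 0.21 (edgeR adjusted p = 1.72e-06). HIST2H2BE, whose model runs 1729 bases past the stem-loop, was at 359, 318 and 339.9 CPM in control, 118, 120.2 and 84.7 with shRNA 1 and 142, 107 and 152 with shRNA 2. It fell with both, -1.66 ± 0.16 (edgeR adjusted p = 2.58e-05) and -1.34 ± 0.16 (edgeR adjusted p = 3.93e-05), and the shRNA groups overlapped. HIST3H2BB was rare, at 0.956, 2.60 and 2.01 CPM in control and at 1, 0 and 6 counts in the shRNA 2 libraries. It passed with both, -3.55 ± 0.57 (edgeR adjusted p = 0.00072) and -5.08 ± 0.69 (edgeR adjusted p = 0.000125); with so few counts the size of the second fall is uncertain, and it ran from -4.43 without shRNA 2 replicate 2 to -7.01 without shRNA 2 replicate 3.

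Among H3 genes, 7 of 9 were lower with shRNA 1 and 9 of 9 with shRNA 2, where 19% and 27.4% of all genes were. Without shRNA 2 replicate 1 it was 9 of 9 with each, where 20.8% and 27% of all genes were. HIST1H3B was at 372, 312 and 313 CPM in control, 70.2, 72.0 and 36.3 with shRNA 1 and 11.6, 11.2 and 7.77 with shRNA 2. The groups were wide apart, and the level with shRNA 2 was 32.6-fold lower than control. The log2 changes were -2.48 ± 0.27 (edgeR adjusted p = 0.000125) and -5.03 ± 0.30 (edgeR adjusted p = 1.23e-06). HIST1H3D changed by -2.07 ± 0.33 (edgeR adjusted p = 0.00153) and -3.13 ± 0.34 (edgeR adjusted p = 0.000104). HIST2H3D was at 44.6, 38.9 and 54.3 CPM in control, 7.11, 16.4 and 2.40 with shRNA 1 and 3.83, 3.82 and 4.72 with shRNA 2. The shRNA 1 libraries were widely spread but all below control, and the changes were -2.41 ± 0.62 (edgeR adjusted p = 0.0217) and -3.48 ± 0.66 (edgeR adjusted p = 0.00387). The first of these calls was lost without control replicate 1 (-2.42, edgeR adjusted p = 0.0525), control replicate 3 (-2.29, edgeR adjusted p = 0.0598) or shRNA 1 replicate 1 (-2.28, edgeR adjusted p = 0.0785), and deepened without shRNA 1 replicate 2 (-3.28, edgeR adjusted p = 0.00181). HIST1H3E stood apart among the genes below the filter, and was chosen after its values were seen: it had 0, 0 and 0 counts in control, 3, 0 and 0 with shRNA 1 and 4, 10 and 7 with shRNA 2. The main fit, with its filter on low counts, did not test this difference, and a fit without the filter is reported at the end.

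Among H4 genes, 8 of 13 were lower with shRNA 1 and 10 of 13 with shRNA 2, where 19% and 27.4% of all genes were. Without shRNA 2 replicate 1 it was 13 of 13 with each, where 20.8% and 27% of all genes were. HIST1H4I, the other gene known from that analysis, was at 60.1, 59.4 and 73.0 CPM in control, 8.18, 14.3 and 4.96 with shRNA 1 and 4.39, 3.63 and 4.13 with shRNA 2. The groups did not overlap, and the changes were -2.81 ± 0.34 (edgeR adjusted p = 0.00035) and -3.99 ± 0.36 (edgeR adjusted p = 2.99e-05). HIST1H4L changed by -1.73 ± 0.24 (edgeR adjusted p = 0.000418) and -4.16 ± 0.27 (edgeR adjusted p = 1.2e-06). HIST4H4, the lone gene on chromosome 12, was at 8.51, 6.87 and 10.8 CPM in control, 4.33, 7.09 and 2.47 with shRNA 1 and 6.48, 2.79 and 3.78 with shRNA 2. The shRNA 1 group overlapped control, and no change passed, with -0.91 ± 0.41 (edgeR adjusted p = 0.108) and -1.02 ± 0.41 (edgeR adjusted p = 0.0632). Without shRNA 2 replicate 1 it passed with both, -0.93 (edgeR adjusted p = 0.0346) and -1.43 (edgeR adjusted p = 0.00717), and it passed also with shRNA 1 without shRNA 1 replicate 2 (-1.37, edgeR adjusted p = 0.0224) and with shRNA 2 without shRNA 1 replicate 2 or 3 (-1.01 and -1.03, edgeR adjusted p = 0.0311 and 0.0306). It passed with both in fits of the compared groups alone (edgeR adjusted p = 0.0423 and 0.0429) and with DESeq2 (adjusted p = 0.0344 and 0.0136).

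**Figure D2:**
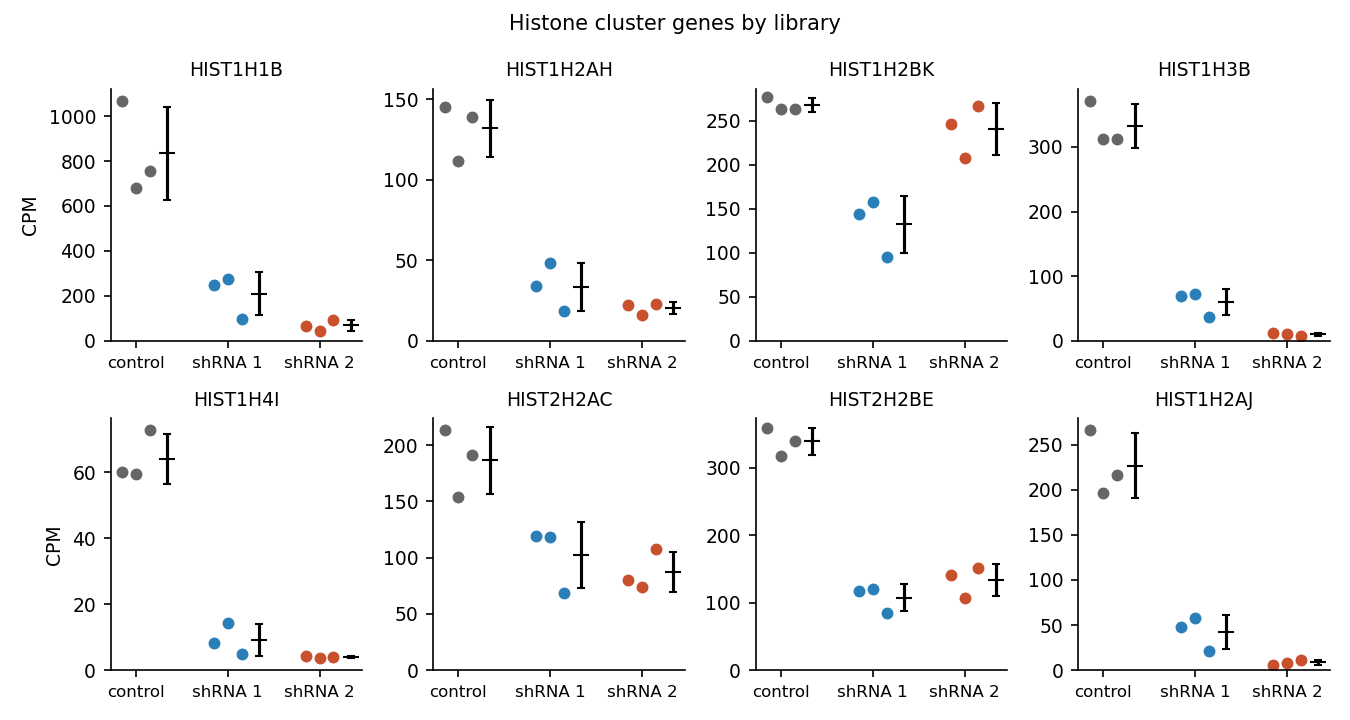
CPM (vertical axes, from 0) of 8 histone genes in each library, with the mean and SD of 3 libraries in black. HIST1H2BK alone of the 8 returned with shRNA 2 to between 208 and 267 CPM, close to its 263 to 277 CPM in control, while HIST1H3B and HIST1H2AJ were at 11.6 CPM or less.

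Per length, over genes with a RefSeq span of up to 1000 bases, the control libraries held 1889 CPM per kb of HIST2H4A, 1208 of HIST1H4K and 1047 of HIST1H1B on average. With shRNA 2 the highest level per kb was that of HIST1H1E, 366 CPM per kb, against 887 in control, and HIST2H2AA3 followed with 231, over 3 libraries of which 1 had almost none. HIST1H1B was at 86.6 CPM per kb and HIST2H3A at 19.99, against 782 in control. These levels per length are group means without a test.

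Summed over each type, with genes of identical counts taken once, H3 mRNA was at 1696, 1398 and 1556 CPM in control, 335, 466 and 164 with shRNA 1 and 106, 99.5 and 119.8 with shRNA 2. The shRNA 2 mean was 6.98% of control. H4 mRNA was at 2758 ± 308 CPM (SD, n = 3) in control, 686 ± 324 CPM (SD, n = 3) with shRNA 1 and 285 ± 108 CPM (SD, n = 3) with shRNA 2, the last of these 10.3% of control. H2B mRNA was at 2602 ± 237 CPM (SD, n = 3), 730.0 ± 178 CPM (SD, n = 3) and 652 ± 84.9 CPM (SD, n = 3), and its shRNA 2 libraries overlapped those of shRNA 1. In the shRNA 2 libraries HIST1H2BK alone gave 246, 208 and 267 CPM of the H2B sums of 654.8, 566.5 and 736.3 CPM. The means for H2A were 26.4% and 18.4% of control with shRNA 1 and 2, and those for H1 37.4% and 22.8%. For every type each shRNA library was below each control library. Leaving out the 11 genes that were under 0.5 of their group's other libraries in shRNA 2 replicate 1 gave 8.55% for H3, 13.8% for H4, 25.3% for H2B, 17.3% for H2A and 22.8% for H1 with shRNA 2. These sums were not tested.

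**Figure D3:**
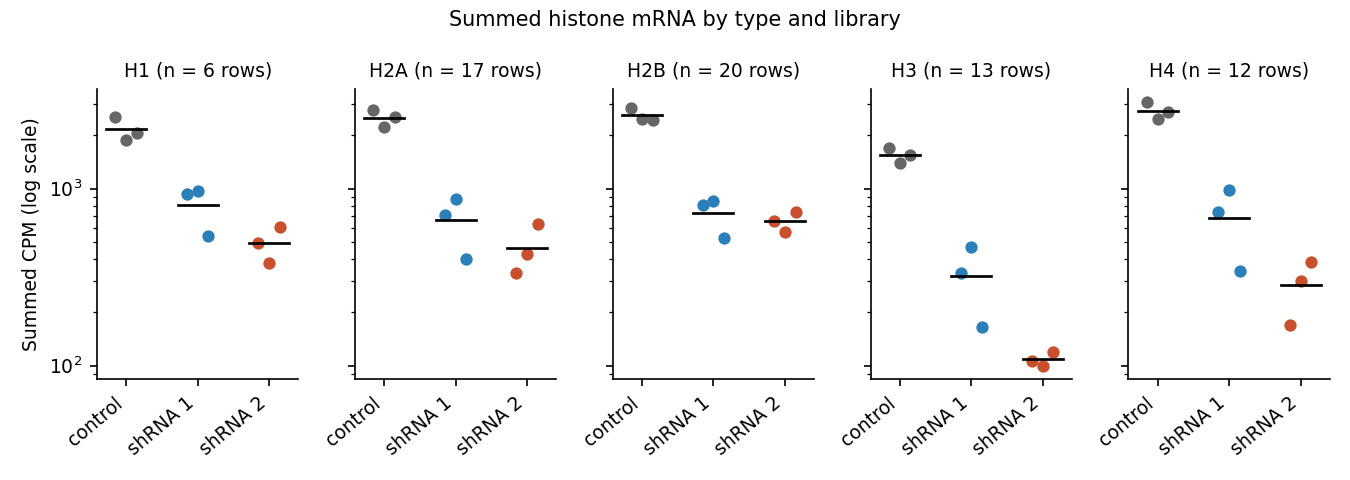
Summed CPM (vertical axis, log scale) of the histone genes of each type in each library, with group means as black lines and genes of identical counts taken once. H3 mRNA with shRNA 2 lies near 100 CPM in all 3 libraries, while H2B mRNA with shRNA 2 lies between 567 and 736 CPM, close to shRNA 1. Of this H2B mRNA, HIST1H2BK alone gave 208 to 267 CPM.

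Set against each other, shRNA 2 had 25 genes lower than shRNA 1 and 1 higher, where 16.5% of all genes were lower and 15.5% higher, and the median log2 difference was -1.05 against -0.03 over all genes. HIST1H2BK was the gene called higher. With all libraries the 25 were HIST1 genes, and 0 of the 13 HIST2 genes passed in either direction. Without shRNA 2 replicate 1, 4 of the 13 HIST2 genes were lower, namely HIST2H3A and HIST2H3C, -2.06 (edgeR adjusted p = 0.0176), and HIST2H4A and HIST2H4B, -1.28 (edgeR adjusted p = 0.0411), and 1 was higher. The genes of each of these pairs have identical counts, so each pair is a single measurement. The edgeR count of lower genes rose to 38 without shRNA 1 replicate 3 and to 30 without shRNA 2 replicate 1, where 13.2% of all genes were lower. Without the latter library 2 genes were higher, where 12.8% of all genes were: HIST1H2BK and the pseudogene HIST2H2BC (1.03, edgeR adjusted p = 0.00817). By library, 27 of the 60 lay below and 2 above every shRNA 1 library, where 23.2% and 21.5% of all genes did, and the 2 above were HIST1H2BK and HIST1H1T. The counts were 28 below and 3 above without shRNA 2 replicate 1, where 26.1% and 24.6% of all genes did. HIST1H4L (-2.43 ± 0.25 (edgeR adjusted p = 0.000102)), HIST1H3B (-2.55 ± 0.27 (edgeR adjusted p = 0.000153)) and HIST1H2AB (-2.44 ± 0.36 (edgeR adjusted p = 0.00116)) were among the deepest of these differences. HIST1H2AE (-0.20 ± 0.24 (edgeR adjusted p = 0.583)) and HIST1H1E (-0.26 ± 0.21 (edgeR adjusted p = 0.386)) did not pass. For HIST1H4I the difference was -1.18 ± 0.34 (edgeR adjusted p = 0.0286), and the call was lost without shRNA 1 replicate 1 (edgeR adjusted p = 0.0669), shRNA 2 replicate 2 (edgeR adjusted p = 0.0917) or shRNA 2 replicate 3 (edgeR adjusted p = 0.0841), and in a fit without the filter on low counts (edgeR adjusted p = 0.0534).

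Several genes with near-identical copies were almost without reads in shRNA 2 replicate 1. HIST2H4A and HIST2H4B, with identical counts throughout, were at 751, 677 and 816 CPM in control, 122, 207 and 57.0 with shRNA 1 and 0.0316, 50.05 and 55.4 with shRNA 2. HIST2H3A and HIST2H3C, also identical, were at 404, 360.5 and 450.5 CPM, 59.0, 115 and 21.1 and 0.0316, 16.3 and 14.8. HIST2H2AA3 and HIST2H2AA4, the other identical pair, were at 528, 494 and 625 CPM, 110.5, 193 and 64.3 and 0.158, 145 and 225. In each pair all shRNA libraries were below all controls, and shRNA 2 replicate 1 was far below its fellows. With it in the fit, the pairs changed with shRNA 2 by -4.41 ± 1.68 (edgeR adjusted p = 0.0661), -5.28 ± 1.53 (edgeR adjusted p = 0.0257) and -2.15 ± 1.62 (edgeR adjusted p = 0.306). Without it, they changed by -3.85 (edgeR adjusted p = 6.45e-05), -4.73 (edgeR adjusted p = 0.00011) and -1.59 (edgeR adjusted p = 0.00592). With shRNA 1 the pairs differed from control by -2.54 ± 1.54 (edgeR adjusted p = 0.245), -2.64 ± 1.35 (edgeR adjusted p = 0.173) and -2.16 ± 1.62 (edgeR adjusted p = 0.341) in the fit of all libraries, which share one estimate of spread. Without shRNA 2 replicate 1 these became -2.56 (edgeR adjusted p = 0.000371), -2.66 (edgeR adjusted p = 0.00124) and -2.18 (edgeR adjusted p = 0.000649). The call of HIST2H3A and HIST2H3C with shRNA 2 was also lost when any 1 control library was left out (edgeR adjusted p = 0.054, 0.0543 and 0.0549) or shRNA 2 replicate 2 or 3 (0.0674 and 0.0741), and in a fit of the compared groups alone (0.062), while DESeq2 called HIST2H4A and HIST2H4B lower with shRNA 2 (DESeq2 adjusted p = 0.00718). How the authors' counting treated reads with several places is not stated in the labels or the table, so the values of each copy are uncertain.

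HIST1H4J and HIST1H4K, which also share most of their sequence, were at 3.48, 59.1 and 84.4 and 5.66, 60.9 and 85.6 CPM in the shRNA 2 libraries, and the pseudogene HIST2H2BA was at 0.0632, 4.43 and 7.38. In all 3, replicate 1 was again the lowest by far. Without that library they were lower with shRNA 2 by -2.70 (edgeR adjusted p = 0.000705), -2.70 (edgeR adjusted p = 0.000683) and -3.22 (edgeR adjusted p = 4.37e-06), and with shRNA 1 by -1.94 (edgeR adjusted p = 0.00249), -1.94 (edgeR adjusted p = 0.0024) and -2.54 (edgeR adjusted p = 1.32e-05). With it, they passed with shRNA 2 (edgeR adjusted p = 0.0459, 0.033 and 0.0184) and not with shRNA 1 (edgeR adjusted p = 0.198, 0.159 and 0.0767). The shRNA 2 calls with it were lost without any other library for HIST1H4J, without any control library, shRNA 1 replicate 1 or shRNA 2 replicate 2 for HIST1H4K, and without control replicate 2 or shRNA 2 replicate 2 for HIST2H2BA, with edgeR adjusted p-values up to 0.108, and for all 3 in a fit of the compared groups alone (edgeR adjusted p = 0.0852, 0.0629 and 0.053). In such a fit, which leaves out all shRNA 2 libraries, the 3 passed with shRNA 1 (edgeR adjusted p = 0.00238, 0.00233 and 1.31e-05).

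Sequence shared between genes went along with this loss but did not match it gene for gene. Of the 60 genes tested, 11 had less than 0.5 of the mean of replicates 2 and 3 in shRNA 2 replicate 1, with ratios from 0.000599 to 0.377, and the other 49 had ratios from 0.516 to 1.97. Among the 11, the share of 50-base stretches found in no other gene had a median of 2.82%, and 9 of them were at 26.5% or less; HIST2H2BC (98.4%) and the rare HIST3H2A (99.4%) were the others. Among the 49, the median share was 99.4%. HIST1H2AJ (16.3% and a ratio of 0.611), HIST2H3D (19.6% and 0.895) and HIST1H2BK (25.9% and 1.04) had low shares without such a loss. The limit of 0.5 was chosen after the values were seen.

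**Figure D4:**
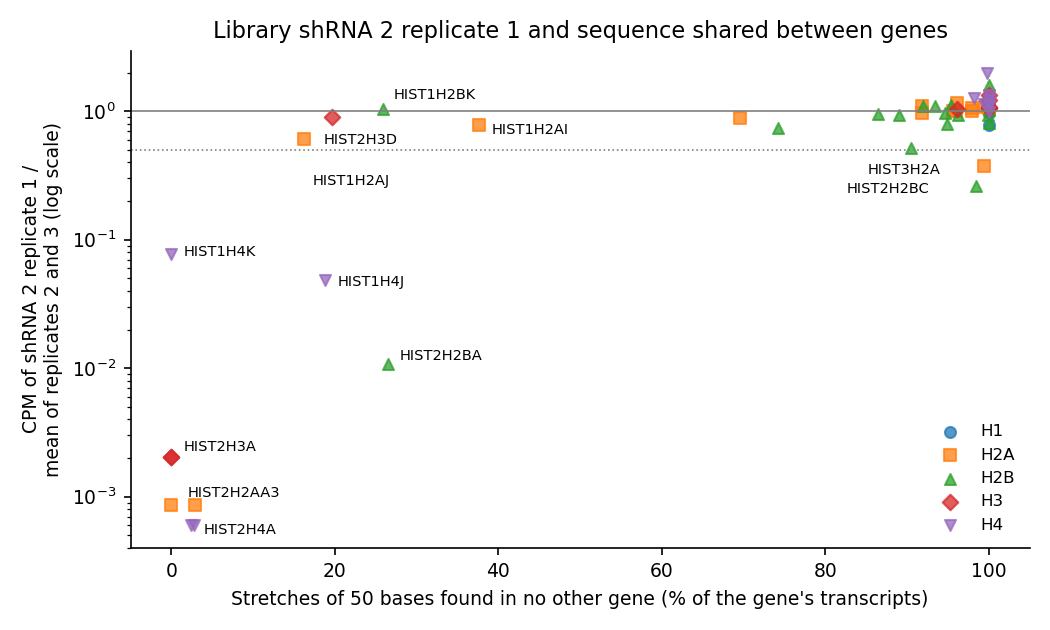
Each point is 1 of the 60 histone genes, by the percentage of 50-base stretches of its transcripts that no other gene holds (horizontal axis) and by its CPM in shRNA 2 replicate 1 over the mean of replicates 2 and 3 (vertical axis, log scale). Lines mark ratios of 1 and 0.5; HIST2H4A, HIST2H2AA3 and HIST2H3A lie at the lower left, and HIST1H2BK, HIST2H3D and HIST1H2AJ combine low shares with ratios from 0.611 to 1.04.

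For 2 genes the table had a pair of transcript rows. The HIST1H2BD rows match GENCODE transcripts of 496 bases, with the stem-loop, and of 789 bases, without it; those of HIST2H2BF match transcripts of 1954 bases, with it, and of 999 bases, without it. The HIST1H2BD row with the stem-loop was at 305, 248 and 266 CPM in control, 72.1, 76.5 and 53.5 with shRNA 1 and 33.4, 31.8 and 37.0 with shRNA 2. The row without it was at 306, 248 and 266 CPM in control, 74.7, 78.3 and 56.8 with shRNA 1 and 37.8, 35.8 and 42.3 with shRNA 2. Both rows stepped down from control to shRNA 1 to shRNA 2 without overlap, and the row without the stem-loop, which stands for the gene in the fit, changed by -1.97 ± 0.14 (edgeR adjusted p = 3.59e-06) and -2.82 ± 0.14 (edgeR adjusted p = 7.63e-08). It exceeded the other by 0.14% to 0.226% of its own reads in control, by 2.31% to 5.83% with shRNA 1 and by 11.4% to 12.4% with shRNA 2. Either row may hold reads that the other lacks, so this excess is a net count and not the level of a form; it was looked at after the data were seen and was not tested.

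For HIST2H2BF the row with the stem-loop was at 289.5, 254 and 248 CPM in control, 49.7, 53.7 and 32.2 with shRNA 1 and 19.2, 21.4 and 28.5 with shRNA 2. The row without it was at 298, 261 and 253 CPM, 61.5, 62.9 and 38.3 and 31.0, 38.0 and 45.7, and exceeded the other by 2.24% to 2.99% of its reads in control and by 37.7% to 43.7% with shRNA 2. In both rows every shRNA library was below every control library. With the row with the stem-loop in the fit, the log2 change of HIST2H2BF with shRNA 2 was -3.51 (edgeR adjusted p = 5.43e-07), against -2.82 with the other row, and the difference between the shRNAs passed (-0.96, edgeR adjusted p = 0.00488), where the other row gave -0.50 ± 0.20 (edgeR adjusted p = 0.0745).

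Among the 60 genes, medians differed less between forms of the transcript model than between histone types. The 21 genes whose models run at least 100 bases past the stem-loop had median changes of -1.86 with shRNA 1 and -2.29 with shRNA 2. The 8 whose models end within 100 bases of it had medians of -2.19 and -3.02, and the 31 without a match had medians of -1.97 and -3.20. The classes overlap widely, from -5.28 to 0.19 with shRNA 2 in the first and from -5.03 to -0.16 in the last. Genes that start within 1000 bases of each other on opposite strands gave 11 H2A and H2B pairs with both genes tested. In HIST1H2AJ and HIST1H2BM the changes with shRNA 2 were -4.73 and -4.41, in HIST1H2AI and HIST1H2BL -3.92 and -3.79, and in HIST1H2AC and HIST1H2BC -2.01 and -2.04. The pairs HIST1H2AH and HIST1H2BK (-2.70 and -0.16), HIST2H2AA4 and HIST2H2BC (-2.15 and 0.19), and HIST3H2A and HIST3H2BB (-0.96 and -5.08) were farther apart. Also different were HIST1H2AG and HIST1H2BJ (-2.29 and -3.48), HIST1H2AM and HIST1H2BO (-2.81 and -3.66), and HIST1H2AE and HIST1H2BG (-2.76 and -2.02). The remaining pairs were HIST1H2AD and HIST1H2BF (-2.82 and -3.23) and HIST2H2AC and HIST2H2BE (-1.10 and -1.34). HIST3H2A and HIST3H2BB had few counts, and HIST2H2AA4 was almost without reads in shRNA 2 replicate 1. These differences within pairs were not tested.

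Of 23 genes whose products process histone mRNA or take part in its turnover, 8 were lower and 2 higher with shRNA 1, where 19% of all genes were lower and 20.4% higher, and 12 were lower and 2 higher with shRNA 2, where 27.4% and 27.5% were. The medians were -0.25 and -0.46. Without shRNA 2 replicate 1 the counts were 8 lower and 2 higher with shRNA 1 (20.8% and 19.6% of all genes) and 13 lower and 2 higher with shRNA 2 (27% and 25.8% of all genes). NELFE, a subunit of the negative elongation factor, had no count in that library and was lower with shRNA 2 without it, -0.99 (edgeR adjusted p = 0.001). SLBP was at 88.8, 78.2 and 63.7 CPM in control, 54.4, 41.0 and 42.0 with shRNA 1 and 28.4, 32.1 and 33.2 with shRNA 2. The groups did not overlap, and the changes were -0.75 ± 0.15 (edgeR adjusted p = 0.0023) and -1.30 ± 0.15 (edgeR adjusted p = 2.86e-05). SNRPB, a Sm protein gene, changed by -1.25 ± 0.22 (edgeR adjusted p = 0.00176) and -1.64 ± 0.22 (edgeR adjusted p = 0.000194). The rises were those of ZCCHC6, 0.59 ± 0.10 (edgeR adjusted p = 0.000959) and 0.82 ± 0.10 (edgeR adjusted p = 4.98e-05), and ZCCHC11, 0.40 ± 0.11 (edgeR adjusted p = 0.0163) and 0.46 ± 0.11 (edgeR adjusted p = 0.00546), which encode uridylyltransferases that mark histone mRNA for decay. The call of ZCCHC11 with shRNA 1 was lost without control replicate 2 (0.38, edgeR adjusted p = 0.0738).

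Of 23 histone chaperones and assembly factors, 18 were lower and 2 higher with shRNA 1, where 19% of all genes were lower and 20.4% higher. With shRNA 2, 17 were lower and 3 higher, where 27.4% and 27.5% were. Without shRNA 2 replicate 1 it was 18 lower and 1 higher with shRNA 1 (20.8% and 19.6% of all genes). With shRNA 2 it was then 18 lower and 3 higher (27% and 25.8% of all genes). HJURP, the chaperone of the centromeric variant CENPA, changed by -2.06 ± 0.17 (edgeR adjusted p = 8.14e-06) and -4.74 ± 0.20 (edgeR adjusted p = 2.89e-08), and CENPA itself by -1.52 ± 0.18 (edgeR adjusted p = 9.44e-05) and -3.69 ± 0.21 (edgeR adjusted p = 1.54e-07). ASF1B, a chaperone of H3 and H4, changed by -1.81 ± 0.17 (edgeR adjusted p = 1.73e-05) and -3.20 ± 0.18 (edgeR adjusted p = 1.39e-07). MCM2, a helicase subunit that also binds H3 and H4, changed by -2.48 ± 0.21 (edgeR adjusted p = 1.69e-05) and -3.03 ± 0.22 (edgeR adjusted p = 1.46e-06), and TONSL, a reader of newly deposited H4, by -2.76 ± 0.26 (edgeR adjusted p = 2.41e-05) and -3.13 ± 0.26 (edgeR adjusted p = 3.83e-06). NAP1L1, a chaperone of H2A and H2B, rose by 0.43 (edgeR adjusted p = 0.0195) and 0.56 (edgeR adjusted p = 0.00326), and the first call was lost without control replicate 2 or 3 or shRNA 1 replicate 1 (edgeR adjusted p from 0.0576 to 0.0939). ATRX, a remodeler that deposits H3.3 with DAXX, rose by 0.38 (edgeR adjusted p = 0.0408) and 0.46 (edgeR adjusted p = 0.0127). Its first call was lost without any 1 of control replicates 1, 2 and 3, shRNA 1 replicates 1 and 3 or shRNA 2 replicates 1 and 2 (edgeR adjusted p from 0.0548 to 0.17), without the filter (0.0694) or in a fit of the compared groups alone (0.0611), and its second without control replicate 2 or shRNA 2 replicate 3 (0.0691 and 0.0518). DAXX did not pass, 0.03 ± 1.45 (edgeR adjusted p = 0.989) and -1.055 ± 1.47 (edgeR adjusted p = 0.58), and was at 0.28, 183 and 190 CPM in the shRNA 2 libraries. Without shRNA 2 replicate 1, DAXX was lower with shRNA 2, -0.49 (edgeR adjusted p = 0.0132), and did not pass with shRNA 1, 0.009 (edgeR adjusted p = 0.961). SUPT6H, a histone chaperone of transcription, was lower with shRNA 1, -0.35 ± 0.09 (edgeR adjusted p = 0.00915), and higher with shRNA 2, 0.48 ± 0.09 (edgeR adjusted p = 0.000863).

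Of 14 tested histone genes outside the clusters, 3 were lower and 2 higher with shRNA 1, where 19% of all genes were lower and 20.4% higher, and 3 lower and 3 higher with shRNA 2, where 27.4% and 27.5% were, with medians of 0.10 and 0.15. Leaving out shRNA 2 replicate 1 gave 3 lower and 2 higher with shRNA 1 (20.8% and 19.6% of all genes). It gave 3 lower and 4 higher with shRNA 2 (27% and 25.8% of all genes). H2AFX, which can end its mRNA in the stem-loop or in a poly(A) tail, was at 13.3, 13.5 and 15.4 CPM in control, 3.22, 4.89 and 2.08 with shRNA 1 and 3.04, 2.25 and 1.98 with shRNA 2. It fell with both, -2.05 ± 0.28 (edgeR adjusted p = 0.000225) and -2.55 ± 0.29 (edgeR adjusted p = 2.63e-05), as did H2AFZ, the gene of a polyadenylated H2A variant, -1.25 ± 0.15 (edgeR adjusted p = 9.88e-05) and -1.46 ± 0.15 (edgeR adjusted p = 1.31e-05). H2AFJ rose by 0.85 (edgeR adjusted p = 0.00292) and 1.40 (edgeR adjusted p = 5.85e-05), and H2AFY, for macroH2A, passed with shRNA 2 and not with shRNA 1, 0.65 ± 0.13 (edgeR adjusted p = 0.00154) and 0.29 ± 0.13 (edgeR adjusted p = 0.103), though it passed with shRNA 1 under upper quartile scaling (0.31, edgeR adjusted p = 0.0423). H3F3B, one of the genes for H3.3, was higher with shRNA 2, 0.53 ± 0.10 (edgeR adjusted p = 0.000731), and did not pass with shRNA 1, 0.06 ± 0.10 (edgeR adjusted p = 0.67). H3F3A did not pass, -0.20 ± 0.42 (edgeR adjusted p = 0.751) and -0.38 ± 0.42 (edgeR adjusted p = 0.481), and was at 109, 364 and 373 CPM in the shRNA 2 libraries. H1F0, the replication-independent linker histone gene, rose with shRNA 1, 0.62 ± 0.17 (edgeR adjusted p = 0.0159), a call lost without control replicate 1 or 2 (edgeR adjusted p = 0.064 and 0.0565). With shRNA 2 H1F0 did not pass, 0.17 ± 0.17 (edgeR adjusted p = 0.431). H1FX changed by -0.55 ± 0.33 (edgeR adjusted p = 0.218) and -0.25 ± 0.33 (edgeR adjusted p = 0.538), passing with shRNA 1 only without shRNA 1 replicate 2 (-1.04, edgeR adjusted p = 0.00501).

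Genes of S phase moved along with the histone genes. Of 23, 22 were lower with shRNA 1, where 19% of all genes were, and 23 with shRNA 2, where 27.4% were. With either, 0 were higher, where 20.4% and 27.5% of all genes were. Without shRNA 2 replicate 1, 23 were lower and 0 higher with each (20.8% and 27% of all genes lower). The medians were -1.79 and -2.96, beside -2.01 and -2.98 for the histone genes. Against shRNA 1, shRNA 2 had 20 lower and 1 higher, where 16.5% and 15.5% of all genes were. The higher was CCNE1, 0.69 ± 0.17 (edgeR adjusted p = 0.00912). CDC45, a factor of the replicative helicase, was at 39.8, 37.1 and 33.5 CPM in control, 8.46, 7.80 and 6.72 with shRNA 1 and 1.64, 1.91 and 0.981 with shRNA 2. MCM10, which acts at the same helicase, was at 77.6, 72.5 and 60.1 CPM, 18.9, 15.3 and 16.9 and 2.91, 3.55 and 2.25. Both fell in steps without overlap, CDC45 by -2.27 ± 0.20 (edgeR adjusted p = 1.27e-05) and -4.61 ± 0.23 (edgeR adjusted p = 5.76e-08) and MCM10 by -2.04 ± 0.17 (edgeR adjusted p = 7.95e-06) and -4.59 ± 0.19 (edgeR adjusted p = 2.89e-08). E2F1 and E2F2, activators of S-phase genes, changed with shRNA 2 by -2.72 ± 0.23 (edgeR adjusted p = 2.48e-06) and -4.54 ± 0.25 (edgeR adjusted p = 1.14e-07). The part of the share of cells in S phase in the histone results was not tested.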

How the data were processed

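The authors deposited 1 table of raw counts per transcript (48104 rows) from 9 poly(A) RNA libraries; STAR, DESeq and hg19 stand in the submitters' processing notes, but not their roles or versions, the use of strand, the handling of multiply placed reads or whether all libraries were counted alike, which the sources used here do not state. Of 80 symbols turned into dates, 78 were restored and 2 left out. The row with the highest total was kept per symbol. The per-sample columns not used numbered 0. Counts were filtered (filterByExpr, 16746 genes), scaled by TMM and fitted in edgeR 4.0.16 (R 4.3.3; quasi-likelihood, robust), all 9 libraries in 1 fit; two-sided tests were adjusted by Benjamini-Hochberg over all genes at 0.05. Values after ± are SE of log2 changes unless SD is stated. Alternatives were other scalings, DESeq2 1.42.0, other filters, only the compared groups, a replicate block, the row with the lowest total and each library left out. The fit was tested on simulated counts, where the share of false calls came out above the 0.05 aimed at and most changes of 1.5-fold were missed. Named genes were the 4 most abundant of each type, extremes per type and comparison, all tested genes of HIST2 to HIST4, extremes of each companion list and preset genes. Members and lists were chosen with earlier results of these data known. Transcript features came from GENCODE release 29 and RefSeq (GRCh38), a build other than that of the counts. All 73 symbols matched both. Counts of 0 allow up to 3 counts. Such limits cover counting error only. Lowest depth was 26455628 counts.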

Additional observations from a re-analysis of the deposited data

How the results depend on the processing

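The number of histone genes lower than control kept within 1.5 times of its value under every alternative run, with 46 to 60 for shRNA 1 and 47 to 58 for shRNA 2 over the left-out libraries. For shRNA 2 against shRNA 1 it ran from 20 to 38, and the number higher from 1 to 2. Without the filter the count higher with shRNA 2 than in control was 1 in place of 0, from HIST1H3E, which has 0 counts in every control library and enters that fit through its shRNA reads alone, so that nothing rests on this call. Of companion genes, 2 to 7 were higher with shRNA 1 than in control when a library was left out (6 with all), and 3 to 9 with shRNA 2 than with shRNA 1 (4 with all); the latter were 9 under upper quartile scaling, 7 with DESeq2 and 8 with at least 1 CPM in 3 libraries. The cause was not tested. Upper quartile scaling moved the median of all genes with shRNA 2 to 0.12. The same-number libraries correlated from -0.088 to 0.568 in their deviations, so the numbers were not taken to pair them; with a replicate block, 48, 47 and 20 histone genes were lower in shRNA 1 against control, shRNA 2 against control and shRNA 2 against shRNA 1. The block ended the calls of HIST2H3D with shRNA 1 (-2.59, edgeR adjusted p = 0.052), of HIST1H4J, HIST1H4K, HIST2H2BA, HIST2H3A and HIST2H3C with shRNA 2 (edgeR adjusted p from 0.0563 to 0.0983) and of HIST1H1B, HIST1H3D and HIST1H4I between the shRNAs (edgeR adjusted p = 0.0857, 0.102 and 0.0793), and HIST3H2A passed with shRNA 1 (-1.60, edgeR adjusted p = 0.0328). The signs of uncalled differences turned with a library left out for HIST2H2BC with shRNA 2 against control (-0.386 to 0.562) and, between the shRNAs, for HIST2H2AA3 and HIST2H2AA4 (-0.754 to 0.593), HIST4H4 (-0.497 to 0.359), HIST1H2AE (-0.429 to 0.034), ATRX (-0.020 to 0.198), H3F3A (-0.428 to 0.204), TONSL (-0.536 to 0.013) and ZCCHC11 (-0.032 to 0.191). They also turned for HIST2H2AA3 and HIST2H2AA4 without the filter (-0.025) and with the replicate block (-0.444), and for HIST4H4 under upper quartile scaling (0.014). Depth limits what can be said of the 13 genes below the filter.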
